A study of Rattus norvegicus with 12 samples.

Results

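The genes described here encode small secreted peptides of 3 families: the whey acidic protein (Wfdc) family, the beta-defensins (Defb) and the Kazal-type inhibitors (Spink). Members were all genes whose array row carried 1 gene symbol that began with Wfdc, Defb or Spink, with the row of the highest mean over all arrays taken for each gene. They numbered 58 of the 14506 genes tested: 13 Wfdc, 37 Defb and 8 Spink genes. Their expression was measured in the ventral prostate of male Wistar rats treated at an age of 90 days, with 3 arrays in each of 4 groups. Castrated rats had the testes removed under anaesthesia with xylazine at 10 mg/kg and ketamine at 150 mg/kg. Estradiol rats kept their testes and received 17β-estradiol once, at 25 mg/kg, with corn oil as the vehicle. Rats of the combined group had the surgery and the estradiol dose. Control rats kept their testes and received corn oil. Tissue was taken 3 days after treatment. The labels list the anaesthetics for both groups with surgery only and do not say whether castrated rats received oil, so surgery, anaesthesia and oil cannot be told apart from loss of the testes as such. Arrays are not tied to named animals, so a p-value here reflects only sample-to-sample spread, which may be technical in part.

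Proteins with a Wfdc domain are held together by a core of disulfide bonds, and several of them block serine proteases or kill bacteria. Beta-defensins are short cationic peptides that disrupt microbial membranes, and many are made along the epididymis, where some coat sperm. Kazal-type Spink proteins inhibit trypsin-like proteases. The ventral prostate is a secretory lobe whose luminal epithelium depends on testicular androgen. Glands of this kind release protease inhibitors and antimicrobial peptides into the seminal fluid.

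Of the 58 genes, 21 had a mean of at least 5 on the log2 scale in at least 1 group, and the other 37 lay near background by that cut-off. The 21 were 10 Wfdc genes, 10 Defb genes and 1 Spink gene, Spink8. Only 6 had a group mean of at least 6: Wfdc1, Wfdc2, Wfdc3, Wfdc5, Wfdc11 and Defb25. Defb25 did so in the estradiol group alone (6.30, against 5.28 in castrated, 5.55 in combined-treated and 5.59 in control rats). Wfdc9, Wfdc21, Defb9, Defb29, Defb43, Defb50 and Spink8 reached 5 in that group alone. Low values were raised on its arrays 1 and 2, as described below. Just above the cut-off of 5 lay Defb29 (highest group mean 5.04), Defb23 (5.05) and Wfdc21 (5.09), and just below it Wfdc18 (4.96), Defb11 (4.87) and Defb41 (4.76). Members that passed the test were few: Wfdc3 and Wfdc11 fell after each treatment, and no Defb or Spink gene passed. Wfdc5 was lower on every treated array than on every control array without passing.

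In each comparison with control, 2 of the 58 genes (3.45%) fell and 0 rose at a limma adjusted p under 0.05. Over all genes tested, 2.36% fell and 3.17% rose after castration, 5.48% fell and 2.51% rose under estradiol, and 2.21% fell and 2.12% rose under the combined treatment. The members' share was thus near that of all genes, and it is the size of the Wfdc3 difference, not the number of calls, that the values below turn on. At an unadjusted p under 0.05, limma counted 6 members for castration (10.3%), 13 for estradiol (22.4%) and 4 for the combined treatment (6.9%), against 16.1%, 30.2% and 14.7% of all genes. The limma F test over the 4 groups found the same 2 genes (adjusted p = 2.64e-05 for Wfdc3 and 0.00193 for Wfdc11), against 5.47% of all genes. Between treated groups no member passed and 0% of all genes did, although limma's unadjusted p was under 0.05 for 26 members (44.8%) between estradiol and castrated rats, 20 (34.5%) between combined and estradiol, and 0 between combined and castrated, against 27.3%, 18.9% and 1.05% of all genes. For estradiol minus castrated, the members' median difference was 0.45 with all arrays and 0.01 without estradiol arrays 1 and 2, described below. For combined minus estradiol it was -0.37 and 0.02. The 3 comparisons with control share the control arrays, so their results are not independent of each other.

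Arrays 1 and 2 of the estradiol group stood apart. The SD of their log2 values was 1.93 and 2.01, against 2.24 to 2.30 on the other 10 arrays, and the median of the 37 members near background was 4.34 and 4.13, against 3.56 to 3.70 elsewhere. The same shift was seen over all genes near background, with medians of 4.24 and 4.16 against 3.72 to 3.85. Without these 2 arrays, 33 of the 58 estradiol differences from control changed sign, none of them past the threshold with all arrays. Values without them are given beside most single-gene results they move, and counts of calls without them in the last section. Counts by unadjusted p and by non-overlap of the arrays were not repeated without them. Such a fit rests on estradiol array 3, assumed to vary like the other groups, and Semg1, a seminal vesicle secretory gene, was at 9.46 on that array, against 2.62 to 3.43 on the other 11 arrays. The part of that signal in other values of array 3 was not tested. The tissue carried its luminal markers: Scgb2a1, a prostate secretoglobin, averaged 12.86 in controls, and 9 markers of the list had a mean level of 10.2 to 10.5 on castrated, 9.99 to 10.8 on estradiol, 10.3 to 10.5 on combined and 10.8 to 11 on control arrays. Probasin (Pbsn), an androgen-dependent secretory gene, was at 4.96, 4.37 and 4.54 in castrated, 6.28, 4.82 and 9.71 in estradiol and 5.31, 7.45 and 4.88 in combined-treated rats, against 10.50, 11.47 and 11.63 in control rats. All treated arrays lay below all control arrays, and estradiol array 3 kept the highest treated level. In these pieces of whole tissue, fewer cells of a type and less RNA per cell cannot be told apart.

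The sequences upstream of these Wfdc genes are shown because Wfdc3 and Wfdc11 fell together and Wfdc5 lay below its control levels on every treated array, while Wfdc2, from the same gene cluster, did not. Each is the 250 bases before the annotated start of the gene, read 5′ to 3′ on the gene's strand, from RefSeq for the GRCr8 build. They lie at chr3:173898295-173898544, chr3:173825766-173826015 and chr3:173274254-173274503, all on the minus strand, and at chr3:173706225-173706474 on the plus strand. Capitals mark the letters TGTTCT, the core hexamer of androgen and glucocorticoid response elements, and the repeated word CATAACAAGTG (reverse complement CACTTGTTATG), both searched on either strand.
Wfdc3: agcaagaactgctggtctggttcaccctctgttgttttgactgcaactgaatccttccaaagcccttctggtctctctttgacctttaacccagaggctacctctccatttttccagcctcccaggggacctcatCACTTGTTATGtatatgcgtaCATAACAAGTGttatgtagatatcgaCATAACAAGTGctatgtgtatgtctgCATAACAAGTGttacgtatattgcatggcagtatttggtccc
Wfdc11: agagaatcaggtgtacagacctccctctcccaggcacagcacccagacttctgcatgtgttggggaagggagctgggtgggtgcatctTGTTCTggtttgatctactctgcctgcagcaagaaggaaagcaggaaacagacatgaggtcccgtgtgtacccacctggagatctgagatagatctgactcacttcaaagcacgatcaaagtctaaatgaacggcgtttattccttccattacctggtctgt
Wfdc5: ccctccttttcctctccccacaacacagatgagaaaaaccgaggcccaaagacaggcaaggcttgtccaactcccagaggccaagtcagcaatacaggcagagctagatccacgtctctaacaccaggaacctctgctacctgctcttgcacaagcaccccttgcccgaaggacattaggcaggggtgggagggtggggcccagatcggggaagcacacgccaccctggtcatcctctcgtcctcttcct
Wfdc2: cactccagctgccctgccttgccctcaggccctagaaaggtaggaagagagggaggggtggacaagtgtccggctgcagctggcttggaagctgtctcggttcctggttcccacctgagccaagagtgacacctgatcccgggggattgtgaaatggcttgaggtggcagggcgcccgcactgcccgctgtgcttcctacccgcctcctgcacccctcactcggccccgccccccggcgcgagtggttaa
TGTTCT occurred in the Wfdc11 sequence, 162 to 157 bases before the start, and not in these windows of the other genes shown. It occurred in 12 of the 39 members with an entry (30.8%), among them Wfdc9, Wfdc21 and Defb25, and in 17.1% of the 27457 sequences of all genes. The full elements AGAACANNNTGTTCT, which contains it, and GGTCANNNTGACC, the palindromes bound by androgen and oestrogen receptors, occurred in no member and in 0.00364% and 0.0219% of all genes. The TATA word TATAAA, searched on the gene's strand, occurred in 8 of the 39 members (20.5%), none of them shown here, and in 8.38% of all genes. The word CATAACAAGTG was picked out after reading the Wfdc3 sequence, where it stood 4 times. It occurred at least once in 4 of the 27457 sequences, and Wfdc3 was the 1 with 3 or more copies. A match of letters is a description and shows no binding.

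Wfdc3 (probe set 10851644) had the largest difference of the 58 genes in each comparison with control. Its log2 levels were 7.37, 7.06 and 6.18 on the castrated arrays. They were 7.99, 9.42 and 8.77 on the estradiol arrays and 7.24, 6.96 and 8.0 on the combined arrays, against 11.55, 11.45 and 11.37 on the control arrays. No treated array came near the control values, whose spread was small (SD 0.09), while the treated groups varied more (SD 0.62 castrated, 0.71 estradiol and 0.54 combined, n = 3 each). Wfdc3 fell by 4.59 on the log2 scale after castration (SE 0.37, limma adjusted p = 9.17e-06). This is a 24.0-fold difference. Under estradiol it fell by 2.73 (SE 0.37, limma adjusted p = 0.000747, 6.63-fold) and under the combined treatment by 4.06 (SE 0.37, limma adjusted p = 2.40e-05, 16.6-fold). Each of these calls held in all 22 alternatives run, and without estradiol arrays 1 and 2 the estradiol difference was -2.68 (limma adjusted p = 0.00518).

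**Figure D1:**
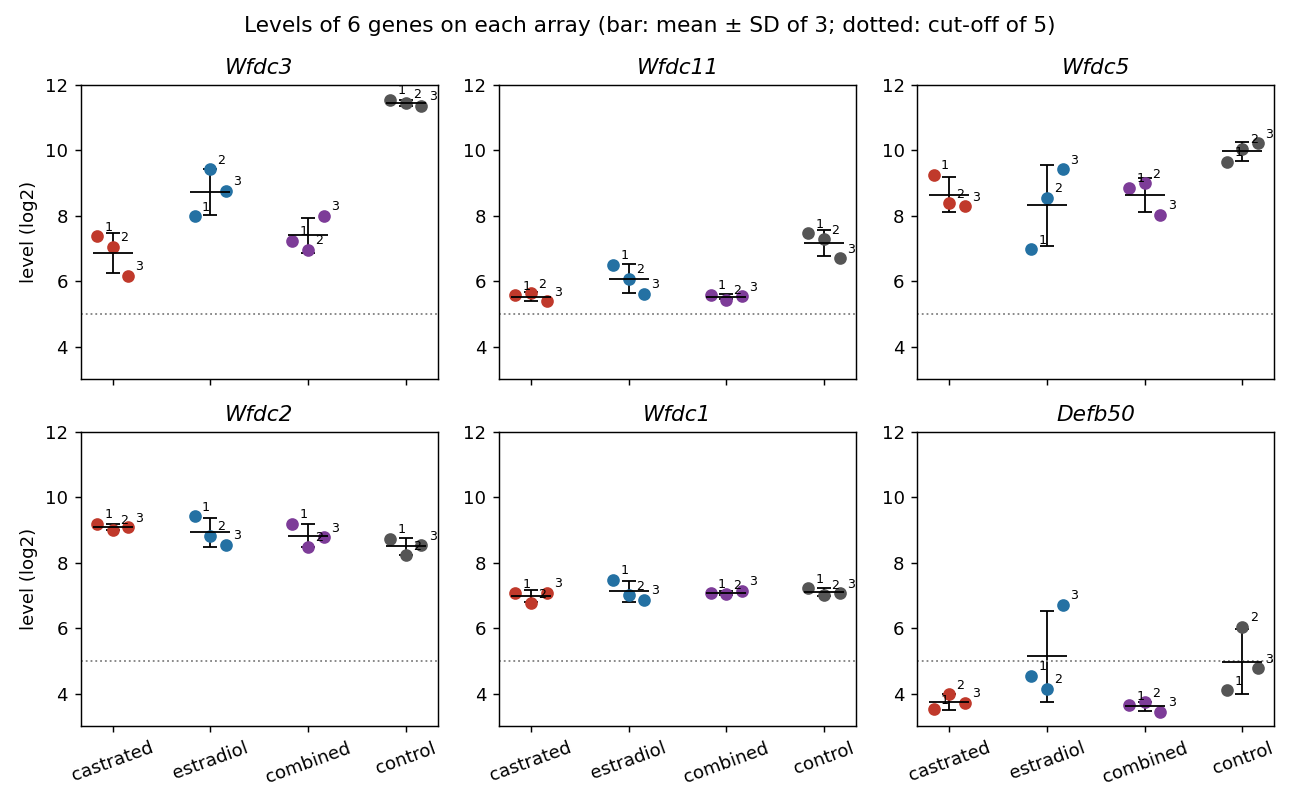
Log2 levels of 6 genes on each of the 12 arrays, by group, with replicate numbers beside the points, the mean ± SD of 3 arrays as bars and the cut-off of 5 dotted. All treated arrays lie below all control arrays for Wfdc3, Wfdc11 and Wfdc5, whereas Wfdc1 lies between 6.76 and 7.48 in every group and Defb50 is highest on estradiol array 3 (6.72).

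The treatments did not add up for Wfdc3. With estradiol the level differed by 0.53 in castrated rats (combined minus castrated, SE 0.37, limma adjusted p = 1.0) and by -2.73 in intact rats. The difference between these effects, the interaction, was 3.26 (SE 0.52, limma adjusted p = 0.00818). Wfdc3 was the 1 member to pass this test, which 1.1% of all genes passed (0.779% of all genes with a positive value). The interaction passed in all 21 alternatives, with values of 2.89 to 3.61. Set directly against castrated rats, estradiol rats had Wfdc3 levels that did not overlap and were 1.86 higher (SE 0.37), with a limma adjusted p of 0.139. Combined minus estradiol gave -1.33 (SE 0.37, limma adjusted p = 0.241), with overlapping arrays. Each of these passed in only 2 of 22 alternatives. They were array weights (limma adjusted p = 0.0253 and 0.0481) and the fit without estradiol array 3 (limma adjusted p = 0.0101 and 0.0429). More of all genes passed in both of these fits too, with the shares given in the last section. Without estradiol arrays 1 and 2 the 2 differences were 1.90 and -1.37.

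Wfdc11 (probe set 10851640) lies close to Wfdc3 on chromosome 3 and fell in the same comparisons by smaller amounts. Its log2 levels were 5.57, 5.64 and 5.39 in castrated rats, 6.51, 6.08 and 5.62 in estradiol rats, and 5.59, 5.44 and 5.54 in combined-treated rats, against 7.48, 7.29 and 6.71 in control rats. The castrated and combined arrays sat in a narrow band (SD 0.13 and 0.08) not far above the cut-off, and no treated array reached the lowest control. The falls were 1.63 after castration (SE 0.23, limma adjusted p = 0.000931), 1.09 under estradiol (limma adjusted p = 0.0130) and 1.64 under the combined treatment (limma adjusted p = 0.000938), on the log2 scale. The castration and combined calls held in all 22 alternatives and the estradiol call in 19. That call ended without control array 1 (a difference of -0.93, limma adjusted p = 0.0697) or 2 (-1.02, limma adjusted p = 0.0675) and when only the estradiol and control arrays were fitted (limma adjusted p = 0.121). The interaction of Wfdc11 was 1.08 (SE 0.32, limma adjusted p = 0.149). It passed in 3 alternatives: without estradiol arrays 1 and 2 (1.53, limma adjusted p = 0.0232), without estradiol array 1 alone (1.30, limma adjusted p = 0.0288) and with array weights (1.17, limma adjusted p = 0.0346).

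Wfdc5 (probe set 10851550), at the other end of the same cluster, was lower in each treated group without passing. Its log2 levels were 9.25, 8.39 and 8.29 in castrated rats, 6.99, 8.55 and 9.43 in estradiol rats and 8.85, 9.0 and 8.03 in combined-treated rats, against 9.66, 10.05 and 10.23 in control rats. The treated groups did not overlap with control, but the estradiol arrays spread over a wide range (SD 1.24, n = 3). The differences were -1.33 for castration (SE 0.48, limma adjusted p = 0.153), -1.65 for estradiol (limma adjusted p = 0.0524) and -1.35 for the combined treatment (limma adjusted p = 0.166). Without estradiol arrays 1 and 2, Wfdc5 fell after castration (limma adjusted p = 0.00934) and after the combined treatment (limma adjusted p = 0.00967). These differences were unchanged, with an SE of 0.29. In that fit 16.6% and 14.5% of all genes passed, against 5.54% and 4.32% with all arrays. Both Wfdc5 calls were also made without estradiol array 1 alone (limma adjusted p = 0.0152 and 0.0160). The estradiol difference was then -0.54 from 1 array (limma adjusted p = 0.576), and without estradiol array 3 it was -2.21 (limma adjusted p = 0.00427).

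Wfdc2 encodes a secreted protein known as HE4, first found in the human epididymis and used as a serum marker of ovarian cancer. Its log2 levels were 9.19, 9.0 and 9.09 in castrated rats, 9.42, 8.83 and 8.55 in estradiol rats and 9.20, 8.49 and 8.77 in combined-treated rats, against 8.73, 8.23 and 8.54 in control rats. All castrated arrays exceeded all control arrays, and the other groups overlapped with control. The differences of 0.60 for castration (SE 0.23), 0.43 for estradiol and 0.32 for the combined treatment had limma adjusted p-values of 0.197, 0.219 and 0.677. Without estradiol arrays 1 and 2 the castration difference, at the same size, passed (limma adjusted p = 0.0406), and the estradiol difference was 0.05. In that fit 16.6% of all genes passed after castration, against 5.54% with all arrays.

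Wfdc1 encodes ps20, a growth inhibitor made by stromal cells of the prostate. It averaged 6.97 ± 0.18 in castrated, 7.12 ± 0.32 in estradiol and 7.08 ± 0.05 in combined-treated rats, against 7.10 ± 0.11 in controls (log2 level, SD, n = 3 each). With all arrays its differences from control were between -0.14 and 0.02, each with an SE of 0.17 (-0.23 for estradiol without arrays 1 and 2), and the limma adjusted p-values were 0.870 for castration, 0.951 for estradiol and 0.992 for the combined treatment. The smooth muscle list, 8 stromal markers with a mean level of 8.27 to 9.07 on castrated and 8.98 to 9.18 on control arrays, had no gene passing after castration.

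The other 5 Wfdc genes with a group mean of at least 5 were low and did not pass in any comparison. Wfdc10a was at 5.30, 5.50 and 5.40 in castrated rats, 6.47, 6.0 and 5.35 in estradiol rats and 5.45, 5.49 and 5.29 in combined-treated rats, against 5.26, 5.35 and 5.35 in control rats. Its estradiol arrays lay above the control arrays (0.62, limma adjusted p = 0.0899), with arrays 1 and 2 of the group at the top, and the difference was 0.03 without them. Wfdc12 did the same, with 5.83, 5.44 and 5.21 in estradiol rats against 4.92, 5.11 and 4.78 in control rats (0.56, limma adjusted p = 0.0622), and so did Wfdc21 (0.28, limma adjusted p = 0.329). These differences were, without estradiol arrays 1 and 2, 0.28 for Wfdc12 and 0.11 for Wfdc21. Wfdc15b differed from control by 0.03, 0.41 and 0.19 for castration, estradiol and the combined treatment, and Wfdc9 by -0.04, 0.28 and -0.03, with estradiol values of 0.02 and 0.07 without those arrays. Wfdc9 and Wfdc21 reached the cut-off in the estradiol group alone.

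**Figure D2:**
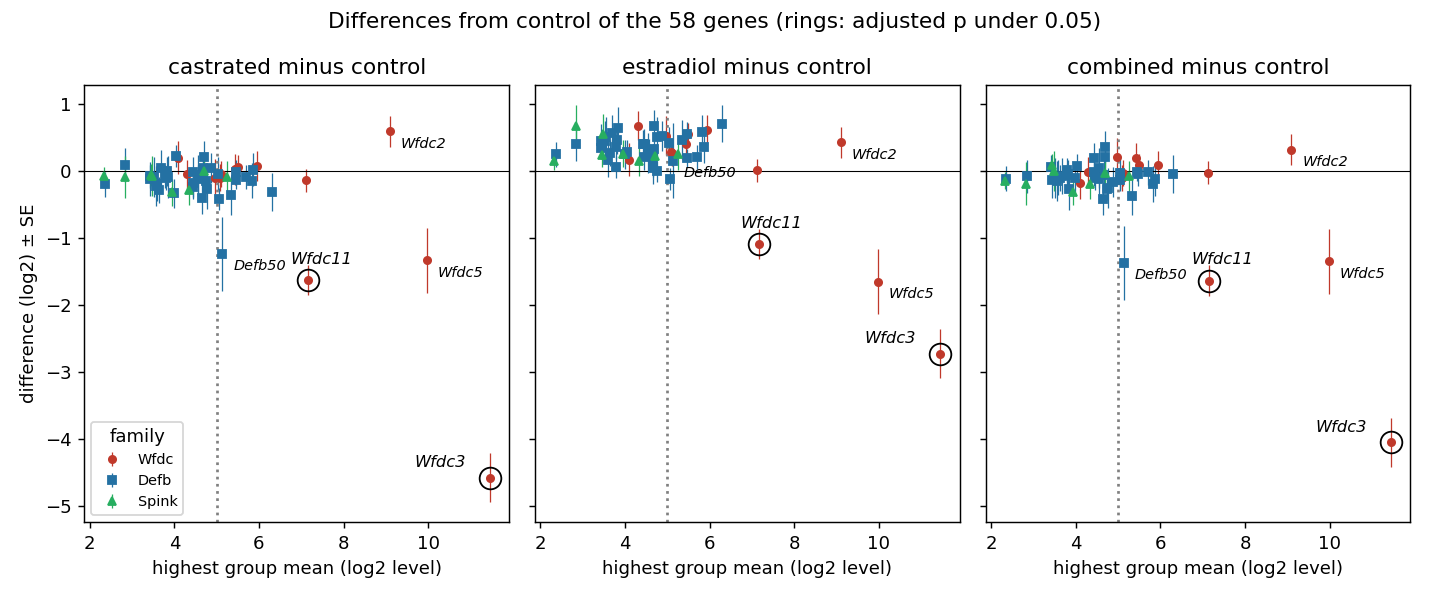
Log2 difference from control ± SE for each of the 58 genes, plotted against the gene's highest group mean (log2), with castrated, estradiol and combined rats in separate panels. The ringed genes, Wfdc3 and Wfdc11, passed the test in each panel, and most genes with a highest mean under 6 lie a little above 0 in the estradiol panel (median 0.31 over all members).

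Along chromosome 3, the stretch from Wfdc5 to Wfdc3 holds 33 annotated protein-coding genes in GRCr8, of which 23 were measured. With Slpi-ps1 and Slpi-ps2, annotated as pseudogenes, 25 genes of the stretch were measured, 10 of them members. Of these 10 Wfdc genes 2 fell in each comparison with control and 0 rose, and of the 15 other genes 0 passed. Wfdc11 and Wfdc3 are the 2 measured Wfdc genes nearest that end of the stretch, with Spint5p, the measured gene between them, at -0.14, 0.20 and 0.19 for castration, estradiol and the combined treatment. Wfdc10a and Wfdc9, next to Wfdc11 on the other side, were at 0.08 and -0.04 for castration. Slpi, the secretory leukocyte protease inhibitor and the best known protein of this fold, differed by 0.42 for castration (limma adjusted p = 0.666), 0.24 for estradiol and 0.98 for the combined treatment (limma adjusted p = 0.118), where it passed without estradiol arrays 1 and 2 (limma adjusted p = 0.0407). Svs4, a seminal vesicle secretory protein encoded within the stretch, differed by -1.26 for castration (limma adjusted p = 0.0562). Eppin, which joins a Wfdc and a Kunitz domain, was at 4.29 in controls and differed by -0.37, -0.10 and -0.32.

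**Figure D3:**
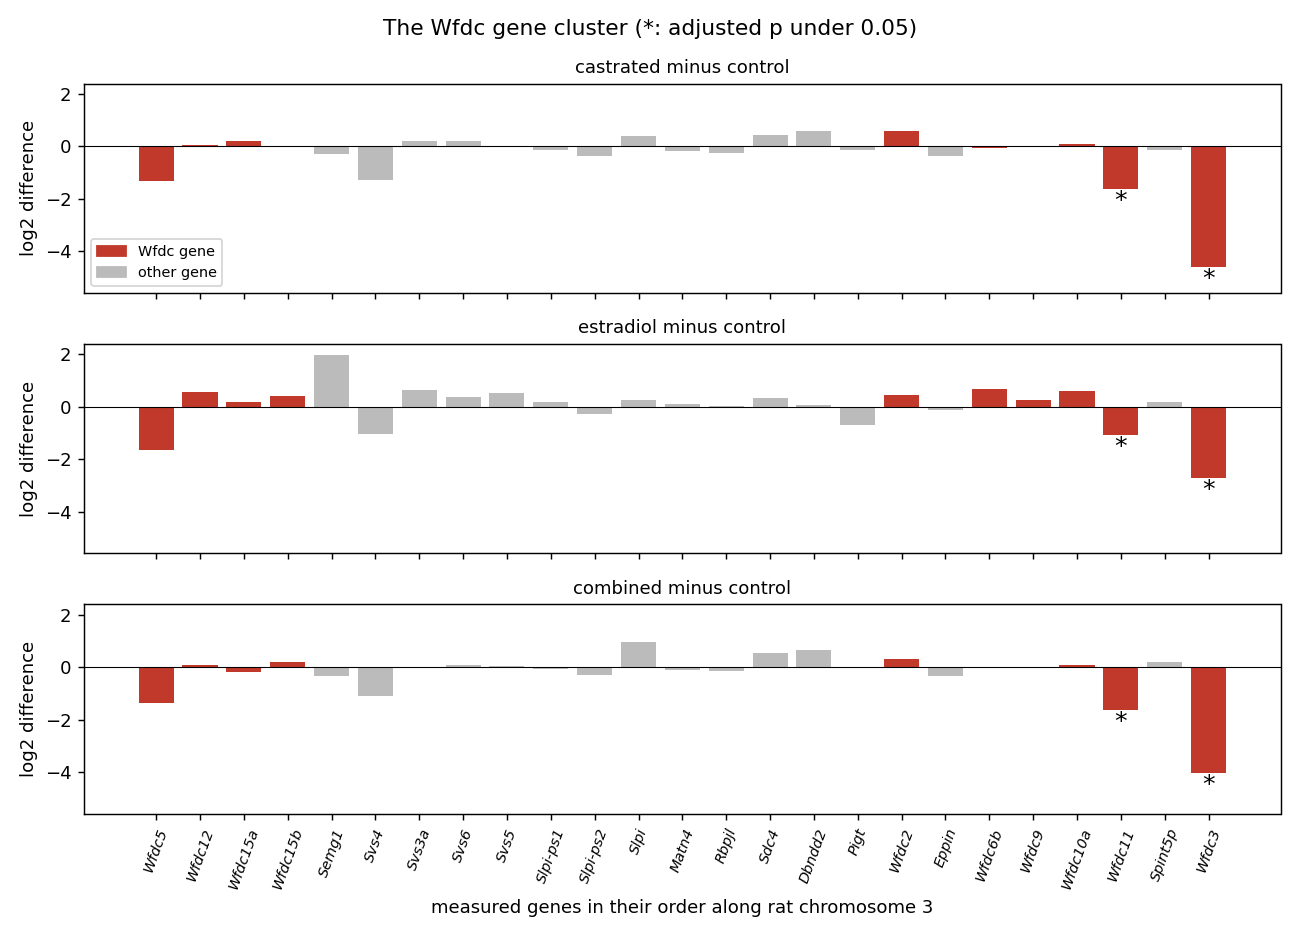
Log2 difference from control of the 25 measured genes from Wfdc5 to Wfdc3, in their order along chromosome 3 and not to distance, with castrated, estradiol and combined rats in separate panels and asterisks at genes past the threshold. The asterisks stand over Wfdc11 and Wfdc3, at the last end, with Wfdc3 lower by 4.59, 2.73 and 4.06.

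The beta-defensins were low throughout: of 37 genes, 10 had a group mean of at least 5, and only Defb25 reached 6. None passed in any comparison, and limma's unadjusted p was under 0.05 for 2 genes after castration, 7 under estradiol and 1 under the combined treatment, where 16.1%, 30.2% and 14.7% of all genes had such a p. Their median differences were -0.10, 0.36 and -0.09, beside 0.01, 0.07 and 0.04 over all genes tested. The estradiol values include arrays 1 and 2, on which low values were raised. Without those arrays the median estradiol difference over all 58 members, the Defb genes among them, was -0.10, beside 0.02 over all genes. Several of these genes lie in arrays of near-identical copies, whose probes may share targets, so single levels are uncertain.

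Defb50, known in the mouse as a prostate beta-defensin, showed the widest range of the beta-defensins. Its log2 levels were 3.52, 3.98 and 3.72 in castrated rats, 4.54, 4.14 and 6.72 in estradiol rats and 3.65, 3.73 and 3.44 in combined-treated rats, against 4.10, 6.05 and 4.78 in control rats. Castrated and combined arrays all lay below the controls, while estradiol arrays spanned the control range and array 3, the highest, was the one that also kept the most Pbsn in that group. The differences of -1.24 for castration (SE 0.56, limma adjusted p = 0.291), 0.16 for estradiol (limma adjusted p = 0.862) and -1.37 for the combined treatment (SE 0.56, limma adjusted p = 0.247) did not pass. Without estradiol arrays 1 and 2, Defb50 fell after castration (limma adjusted p = 0.0399) and after the combined treatment (limma adjusted p = 0.0283). In that fit 16.6% and 14.5% of all genes passed, against 5.54% and 4.32% with all arrays. The estradiol difference of Defb50, from array 3 alone, was then 1.74. Array 3 is also the one with the high Semg1 level.

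Defb25, the one beta-defensin with a group mean above 6, was at 5.37, 5.22 and 5.25 in castrated rats, 6.98, 6.29 and 5.62 in estradiol rats and 5.47, 5.92 and 5.26 in combined-treated rats, against 5.46, 5.86 and 5.43 in control rats. Its castrated arrays lay just below the controls, and its estradiol difference was 0.71 (SE 0.28, limma adjusted p = 0.116). Defb21 had 6.31, 6.18 and 4.99 in estradiol rats against 5.38, 5.26 and 5.10 in control rats (0.58, limma adjusted p = 0.160). Both genes were highest on estradiol arrays 1 and 2, without which their differences were 0.04 and -0.25. Defb43 (0.55, limma adjusted p = 0.0783) lay above control on every estradiol array, Defb9 differed by 0.47, Defb29 by 0.42, Defb36 by 0.37, Defb15 by 0.21 and Defb20 by 0.20 under estradiol, and none of these passed. Without those arrays Defb43 differed by 0.11, and the other 5 genes by between -0.28 and -0.01. Defb23 differed by -0.11 under estradiol. It was at 4.71, 4.42 and 4.77 in castrated rats against 4.83, 5.22 and 5.10 in control rats. These arrays did not overlap, and the castration difference of -0.41 had a limma adjusted p of 0.191. Defb43, Defb9, Defb50 and Defb29 reached the cut-off in the estradiol group alone.

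Of the 58 genes, 14 (24.1%) had all castrated arrays below all control arrays and 1 (1.72%), Wfdc2, had them above, against 13.7% and 18.8% of all genes. For the combined treatment 11 members (19%) lay below and 1 (1.72%) above, against 15.8% and 21.1%. Under estradiol 3 members (5.17%), Wfdc3, Wfdc5 and Wfdc11, lay below and 4 (6.9%), Wfdc10a, Wfdc12, Wfdc21 and Defb43, lay above, against 15.1% and 12.3% of all genes. Between treated groups, 14 members (24.1%) lay above castrated rats on every estradiol array and 0 below, against 9.47% and 9.21% of all genes. Combined arrays lay below every estradiol array for 10 members (17.2%) and above for 0, against 6.55% and 9.04%, and they lay above every castrated array for 6 (10.3%) and below for 1 (1.72%), against 5.66% and 6.64%. Without estradiol arrays 1 and 2 the members' median differences were 0.01 for estradiol minus castrated and 0.02 for combined minus estradiol. With all arrays these medians were 0.45 and -0.37.

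Among the Kazal-type inhibitors only Spink8 reached a group mean of 5, in the estradiol group alone. It was at 5.14, 4.63 and 4.95 in castrated rats, 5.80, 4.92 and 5.04 in estradiol rats and 4.81, 5.06 and 4.89 in combined-treated rats, against 4.66, 5.07 and 5.24 in control rats, with overlap in every comparison and an estradiol difference of 0.26, or 0.05 without arrays 1 and 2. Spink1, the pancreatic secretory trypsin inhibitor, stayed under 4.3 on all arrays, between 3.17 and 3.69 in castrated, 3.63 and 4.24 in estradiol and 3.05 and 3.60 in combined-treated rats, against 3.54 and 3.79 in control rats. None of the 8 Spink genes passed in any comparison with control, and none had an unadjusted limma p under 0.05 there.

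The 37 genes near background had means over the 12 arrays of 2.09 to 4.64 and single values of 1.74 to 5.57. Those with the highest means were Defb37 (4.64), Wfdc18 (4.59) and Spink4 (4.52), and their differences from control lay between -0.27 and 0.53. The largest differences among the 37 were Wfdc6b, Spink1l and Defb19, each at 0.68 under estradiol and none past the threshold (limma adjusted p = 0.0706 for Wfdc6b). Wfdc6b was at 4.51, 4.68 and 3.70 in estradiol rats against 3.59, 3.83 and 3.42 in control rats, so its high values were those of arrays 1 and 2. Without them the differences were 0.09 for Wfdc6b, -0.12 for Spink1l and 0.26 for Defb19. Those arrays held the 2 highest values for 23 of the 37 genes (62.2%), and for 48% of the 3603 genes near background in the whole table. They did so for 9 of the 21 members above the cut-off (42.9%) and for 10% of all 10903 genes above it. The estradiol mean counted toward that cut-off, so high values on these arrays helped decide which genes lay above it. The levels of the 2 sets were not matched, so these 2 shares do not compare like with like. Defb1, the constitutive epithelial beta-defensin, and Defb22, a sperm-coat protein of the rat, were both among the 37, at 3.33 and 2.98 in castrated rats, against 3.43 and 3.06 in control rats. Without estradiol arrays 1 and 2 the median estradiol difference over the 58 genes was -0.10, beside 0.02 over all genes, where it was 0.31 and 0.07 with all arrays.

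**Figure D4:**
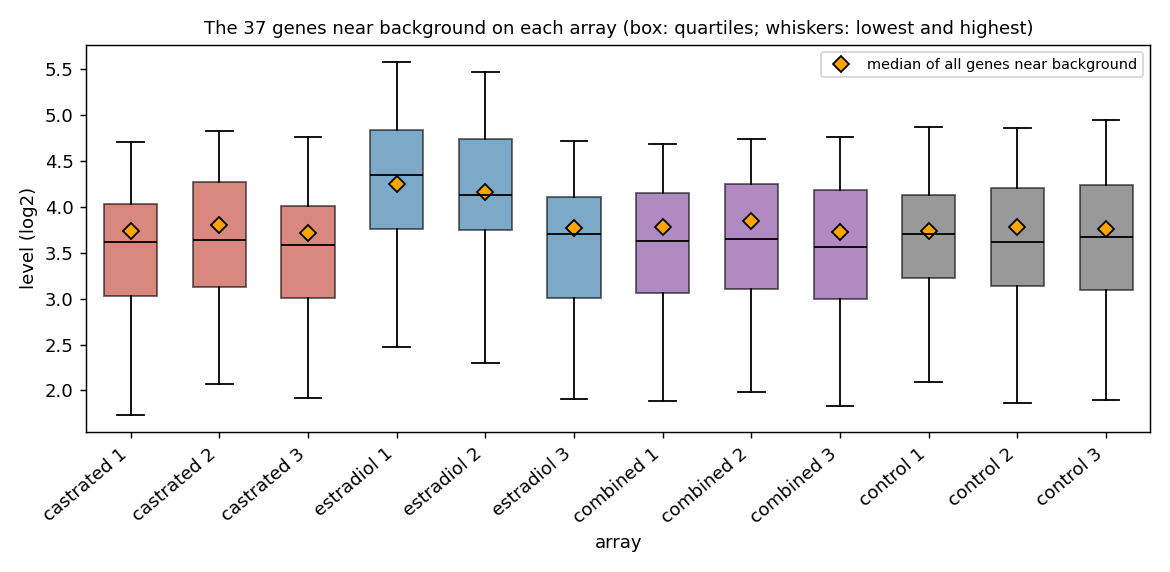
Log2 levels of the 37 members near background on each of the 12 arrays (box, quartiles; line, median; whiskers, lowest and highest value), with diamonds at the median of all 3603 genes near background. Boxes and diamonds of estradiol arrays 1 and 2 stand above those of the other 10 arrays, with member medians of 4.34 and 4.13.

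Other secreted antimicrobials and protease inhibitors were described from gene lists. Over all genes tested, 3.17% rose and 2.36% fell after castration, 2.51% and 5.48% under estradiol, and 2.12% and 2.21% under the combined treatment. Without estradiol arrays 1 and 2, 10% of all genes rose and 6.6% fell after castration, and 7.61% and 6.9% under the combined treatment. Fewer passed under estradiol in that fit, which rests on array 3 of that group. Counts in this and the following lists are to be read beside those shares. Of 34 measured antimicrobial genes, 0 rose and 1 fell after castration, 1 rose and 2 fell under estradiol, and 0 rose and 1 fell under the combined treatment. Lyzl6, which encodes a lysozyme-like protein, fell in all 3 comparisons. It averaged 5.11 in castrated, 5.60 in estradiol and 5.24 in combined-treated rats, against 7.79 in controls. It fell by 2.68, 2.20 and 2.55 (limma adjusted p = 2.42e-06, 8.80e-06 and 3.76e-06), with an interaction of 2.33 (SE 0.24, limma adjusted p = 0.000459). Hamp, the gene of hepcidin, rose by 0.89 under estradiol (limma adjusted p = 0.00672). Rnase4, a secreted ribonuclease, fell by 1.58 (limma adjusted p = 0.00309), and by 0.95 without estradiol arrays 1 and 2 (limma adjusted p = 0.0130). The list's median differences were -0.05, 0.24 and -0.04. Without those arrays, Pigr, the polymeric immunoglobulin receptor, also rose after castration (0.33, limma adjusted p = 0.0470), a gene named after its values were seen.

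Of 25 other measured protease inhibitors, 1 rose and 1 fell after castration, 0 rose and 1 fell under estradiol, and 1 rose and 0 fell under the combined treatment, with median differences of -0.06, 0.16 and -0.03. Spint1, an inhibitor of matriptase and hepatocyte growth factor activator, rose by 0.83 after castration (limma adjusted p = 0.0449) and by 0.92 under the combined treatment (limma adjusted p = 0.0327). Andpro, a cystatin-related prostate secretion, fell by 1.88 after castration (limma adjusted p = 0.0396) and by 1.82 under estradiol (limma adjusted p = 0.0393). Its estradiol call was lost without estradiol arrays 1 and 2 (-1.13, limma adjusted p = 0.304). The list then had 1 rise and 2 falls after castration, 0 and 1 under estradiol and 2 and 2 under the combined treatment, with Cst6, a cystatin chosen after its values were seen, falling in each (-0.84, -0.88 and -0.80).

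Of 37 serine proteases of the kind these inhibitors act on, 1 rose and 1 fell after castration, 1 rose and 0 fell under estradiol, and 1 rose and 1 fell under the combined treatment, with median differences of -0.08, 0.19 and 0.05. Plau, the urokinase gene, rose by 1.23 after castration (limma adjusted p = 0.00513) and by 1.36 under the combined treatment (limma adjusted p = 0.00293). The kallikrein Klk1c12 fell by 1.53 after castration (limma adjusted p = 0.0139) and by 1.63 under the combined treatment (limma adjusted p = 0.0114), a value made uncertain by its near-identical paralogs. Klk4 rose by 0.73 under estradiol (limma adjusted p = 0.0344) and did not pass without estradiol arrays 1 and 2 (0.31, limma adjusted p = 0.426). Without those arrays 5 proteases rose and 3 fell after castration, and 3 rose and 1 fell under the combined treatment. Over all genes in that fit, 10% rose and 6.6% fell after castration, and 7.61% and 6.9% under the combined treatment. In it Plau differed by 1.04 and Klk1c12 by -1.41 under estradiol.

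Markers of other cell types moved on the same arrays. The 8 macrophage markers had mean levels of 8.72 to 9.25 on castrated, 7.36 to 8.80 on estradiol and 8.27 to 8.74 on combined arrays, against 6.98 to 7.53 on control arrays. Of these, 7 rose after castration, 1 under estradiol and 4 under the combined treatment, and Tyrobp, an adaptor of myeloid receptors, rose in each (1.94, 1.02 and 1.75). All 8 rose, without estradiol arrays 1 and 2, in each of the 3 comparisons. Of 9 luminal markers, 3 rose and 2 fell after castration, 2 rose and 3 fell under estradiol, and 3 rose and 1 fell under the combined treatment. The keratins Krt8 (1.28 after castration, limma adjusted p = 0.000463) and Krt18 (0.97, limma adjusted p = 0.00690) and the adhesion gene Epcam (0.79, limma adjusted p = 0.00752) rose after castration, where Pbsn fell by 6.57 (limma adjusted p = 0.000991). In the fit without estradiol arrays 1 and 2, 5 luminal markers rose and 2 fell after castration, 1 rose and 0 fell under estradiol, and 3 rose and 3 fell under the combined treatment. Pbsn then differed by -1.49 under estradiol (limma adjusted p = 0.353), against -4.26 with all arrays (limma adjusted p = 0.0164). The part of these shifts in the values of Wfdc3 and Wfdc11 was not tested.

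Markers of glands that share these families were low on average, with Svs4 (6.49 in controls) and Semg1 on estradiol array 3 (9.46) as exceptions. The 15 measured epididymis markers had mean levels of 3.90 to 4.09 on castrated, 4.08 to 4.51 on estradiol and 3.94 to 4.10 on combined arrays, against 4.05 to 4.07 on control arrays, and its defining gene Crisp1 averaged 3.14 in controls. Of these markers only Adam7 passed, falling by 0.81 after castration (limma adjusted p = 0.0104) and 0.65 under the combined treatment (limma adjusted p = 0.0409). The 6 seminal vesicle markers had mean levels of 3.48 to 3.68 on castrated, 3.83 to 4.74 on estradiol and 3.58 to 3.63 on combined arrays, against 3.71 to 3.97 on control arrays, and none passed. When estradiol arrays 1 and 2 were left out, Svs4 fell after castration (-1.26, limma adjusted p = 0.0276) and Semg1 rose under estradiol, on the single array with the level given above. No gene of the stratified or basal epithelium list passed (7 measured, smallest for Krt15 under estradiol, 1.01, limma adjusted p = 0.142), although Krt15 rose under the combined treatment without estradiol arrays 1 and 2 (1.24, limma adjusted p = 0.0283). In the neutrophil list Mmp8 rose under estradiol (0.87, limma adjusted p = 0.00791), in the pancreas list Cel rose under estradiol (0.81, limma adjusted p = 0.0111), and in the smooth muscle list Cnn1 fell under estradiol (-1.40, limma adjusted p = 0.0183), each as the 1 gene of its list to pass there. These 3 calls were lost without estradiol arrays 1 and 2 (Mmp8 0.82, limma adjusted p = 0.0519; Cel 0.63, limma adjusted p = 0.0723; Cnn1 -0.95, limma adjusted p = 0.262), where Mmp8 rose after castration (0.57) and the combined treatment (0.60).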

How the data were processed

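RNA from rat ventral prostate was measured on 12 Affymetrix arrays, 3 in each of 4 groups. The authors deposited log2 values per probe set, made with Affymetrix Expression Console per the submitters' processing notes; the sources used here do not give the version or the normalization method, and the log2 scale was inferred from the range of the values. Of 29214 probe sets, 15310 had 1 gene symbol, 323 several and 13581 none in GEO's platform annotation. Rows with several symbols were left out, 2 of them with Defb symbols, and the probe set with the highest mean was kept for each of 14506 genes. All 58 member symbols matched the gene table of GRCr8. A gene was called near background where its mean was under 5 in all groups.

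Differences were fitted across all 14506 genes in R 4.3.3 by limma 3.58.1 (lmFit, then eBayes, 1 mean per group, 8 residual and 5.29 prior degrees of freedom). They were 2-sided, with Benjamini-Hochberg adjustment over all genes and a threshold of 0.05. The interaction is the estradiol effect in castrated rats minus that in intact rats. The number of arrays limits the precision. The script was tested on simulated data with changes in the castrated group only. Each simulated gene had the same spread on every array, so the test did not cover arrays like estradiol 1 and 2. Figures and promoter searches used Python 3.11.15 and matplotlib 3.10.9.

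Members named were those with a group mean of at least 5 or past a threshold, and, near background, the 3 with the highest means and the 3 with the largest differences. Genes next to the cut-off were named once, and up to 4 genes that passed from each other list, or the 1 with the smallest p. Defb1, Defb22 and Spink1 were added as well-known members, and Slpi, Eppin and Spint5p as neighbours, and Scgb2a1, Crisp1 and Semg1 as markers, after their values were seen. The members and lists were chosen with earlier results of these data known. Alternatives covered normalization, array weights, the arrays fitted, the background cut-off, the replicate block and leaving out each array. Samples sharing a replicate number are not described in the labels as sharing an animal or a day.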

Additional observations from a re-analysis of the deposited data

Results flagged for a closer look

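Wfdc3 was picked out because the effect of estradiol differed between castrated and intact rats. The estradiol effect was 0.53 in castrated rats (combined minus castrated) and -2.73 in intact rats (estradiol minus control), on the log2 scale. The difference between these effects was 3.26 (SE 0.52, limma adjusted p = 0.00818), and it passed in all 21 alternatives. Groups of 3 arrays were too small for a flag on single outlying samples. Single arrays were instead described by their spread and left out in turn.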

How the results depend on the processing

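With 3 arrays per group, the counts of members called changed with the arrays and weights used, while the Wfdc3 calls against control and for the interaction did not. With all arrays, limma called 2 members for each treatment against control, 0 between treated groups, 1 for the interaction and 2 by the F test, and 21 members lay above the cut-off. Fitting only the arrays compared gave 4 for castration, 1 for estradiol and 5 for the combined treatment, against 12.9%, 1.36% and 19.8% of all genes. Without estradiol arrays 1 and 2, 5 members were called for castration (1 rose and 4 fell, against 16.6% of all genes), 4 for the combined treatment (14.5% of all genes), 2 for the interaction (2.71%) and 4 by the F test (12%). Array weights gave 12 for castration, 12 for estradiol, 6 for the combined treatment, 6 for combined against estradiol, 13 for estradiol against castrated, 5 for the interaction and 18 by the F test, where 26.1%, 15.9%, 28.5%, 3.37%, 11.2%, 7.25% and 36.6% of all genes passed. A cut-off of 4 put 39 members above background and one of 6 put 6 there. Leaving out 1 array at a time gave 2 to 3 calls for castration, 1 to 32 for estradiol, 2 to 3 for the combined treatment, 0 to 0 for combined against castrated, 0 to 31 for combined against estradiol, 0 to 38 for estradiol against castrated, 1 to 9 for the interaction, 2 to 30 by the F test, and 17 to 23 members above the cut-off. The highest counts came without estradiol array 3, where 36.7% of all genes passed for estradiol, 28.6% for combined against estradiol, 37.3% for estradiol against castrated, 11.6% for the interaction and 34.1% by the F test, and the estradiol count of 1 came without control array 1 or 2. With the replicate block the counts were 2, 2, 2, 0, 0, 0, 1 and 2, so it changed no call. Samples with the same number correlated at -0.16 to 0.28 in their deviations from the group means, over 0.1 in 7 of 18 pairs. Those with different numbers correlated at -0.25 to 0.28, over 0.1 in 6 of 36 pairs. The ranges overlapped, while values over 0.1 were more frequent among pairs with the same number. Whether the numbers pair the samples was not tested. Wfdc3 kept its call in 22 of 22 alternatives in each comparison with control, with differences of -4.84 to -4.24 for castration, -3.07 to -2.27 for estradiol and -4.36 to -3.84 for the combined treatment. Wfdc11 kept its calls in 22, 19 and 22 of 22. Wfdc5 passed in 4 of 22 in each comparison. The called differences of Wfdc3 and Wfdc11 kept their sign in all alternatives. Estradiol differences that did not pass were less stable: without estradiol arrays 1 and 2, 33 of the 58 changed sign, among them Defb21 (-0.25), Defb9 (-0.28), Defb29 (-0.21), Defb36 (-0.12) and Spink1l (-0.12), and the members' median was -0.10 in place of 0.31. The cause of the changed counts was not tested.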
